A study of Mus musculus with 4 samples.

Results

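The IFIT genes, viperin and the ISG15 system are interferon-stimulated genes whose products act against viruses inside the infected cell. The 10 genes described are *Ifit1*, *Ifit2*, *Ifit3*, *Ifit3b* and *Ifit1bl1* of the IFIT family, *Rsad2*, which encodes viperin, its neighbor *Cmpk2*, and *Isg15*, *Usp18* and *Herc6* of the ISG15 system. They were taken by name, as the probes whose gene name, or whose RefSeq symbol for the transcript accession, is one of these. All 10 were found, with 14 probes, among 20144 genes and 39429 probes. J774.1 cells, a mouse monocyte-macrophage line, had been kept for 4 hours with 1 μM MG132, 1 μM epoxomicin, 1 μM ONX0914 or the solvent DMSO alone. RNA of each culture was read on 1 single-color array, so there were 4 arrays with 1 per group, and no difference below has a replicate check or a P value. The treatment tag of the ONX array reads ONX-0912, whereas the treatment protocol and the Methods name ONX0914, and the array is called ONX0914 here. The comparison asks which transcripts differ when the proteasomes of this line are inhibited.

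All 3 compounds block proteolytic subunits of the proteasome, and ONX0914 is directed at the β5 and β5i subunits. When interferon binds its receptor, a transcription factor complex that includes IRF9 binds interferon-stimulated response elements (ISREs) in the promoters of genes such as these, and other interferon regulatory factors can bind similar elements. IFIT proteins bind RNA and restrain the translation of viral messages. Viperin makes a nucleotide that ends viral RNA chains, and CMPK2 is a nucleotide kinase that supplies its substrate. ISG15 is a ubiquitin-like protein that is joined to other proteins by UBA7, UBE2L6 and ligases such as HERC6 in the mouse, and USP18 removes it and dampens signaling from the type I interferon receptor.

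Promoter sequences are shown first, because several members carry the same short element in different number and position. RefSeq windows of 300 bases (250 before the start of a gene and 50 after) were at hand for 9 of the 10 members, 11 windows in all, and *Usp18* had none. The sequences are those of the reference genome, build GRCm38.p6, and not of J774.1 DNA. The ISRE core was searched on both strands as GAAA, any 2 bases and GAAA again, which reads TTTC, any 2 bases and TTTC on the opposite strand. It was found for 6 of the 9 members, *Ifit1*, *Ifit3*, *Ifit3b*, *Ifit1bl1*, *Rsad2* and *Isg15*. Of all 27025 genes with a window, 3.99% had it in at least 1 window, and of all 32851 windows 3.44% held it. These letters are not in the windows of *Ifit2*, *Cmpk2* and *Herc6*. The γ-activated site, searched as TTCNNNGAA on both strands, was found among the members in 1 window of *Ifit2*, for 9.55% of all genes and in 8.30% of all windows.

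The 150 bases before the start of *Isg15* (chr4:156200819-156200968, minus strand) and of *Rsad2* (chr12:26456453-26456602, minus strand) show a cluster of 3 overlapping cores beside a single one. Both are given 5′ to 3′ in the direction of the gene, with ISRE cores in capitals.
Isg15: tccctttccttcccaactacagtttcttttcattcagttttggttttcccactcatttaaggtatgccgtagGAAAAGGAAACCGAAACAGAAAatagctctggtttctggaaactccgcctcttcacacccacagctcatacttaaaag
Rsad2: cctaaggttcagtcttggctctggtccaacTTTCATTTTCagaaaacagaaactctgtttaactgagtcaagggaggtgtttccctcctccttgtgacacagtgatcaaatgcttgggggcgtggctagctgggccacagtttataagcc

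The cores of the IFIT genes are shown with 10 bases on either side, in the direction of the gene and with the core in capitals, so that the paired cores can be compared. The *Ifit1* runs lie at chr19:34640775-34640804 and chr19:34640794-34640823, and the *Ifit3* runs at chr19:34583363-34583392 and chr19:34583397-34583426, all on the plus strand. The *Ifit1bl1* run lies at chr19:34602053-34602082 on the minus strand.
Ifit1, first core: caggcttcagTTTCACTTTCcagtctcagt
Ifit1, second core: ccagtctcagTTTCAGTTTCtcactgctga
Ifit3, first core: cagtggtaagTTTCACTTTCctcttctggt
Ifit3, second core: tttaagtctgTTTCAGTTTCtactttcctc
Ifit1bl1: actctgtaggTTTCATTTTCtgtaggttgg

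The cores of *Ifit1* begin 104 and 85 bases before its start, and those of *Ifit3* begin 156 and 122 bases before. Both runs of *Ifit3* recur letter for letter in the window of *Ifit3b*, at chr19:34607759-34607788 and chr19:34607793-34607822 on the plus strand. The windows of *Ifit3* and *Ifit3b* are near copies, identical in 259 of 274 aligned columns (94.5%). *Ifit1bl2*, an IFIT-like gene that is not among the 10, faces *Ifit1* on the opposite strand with its start 146 bases away, and the windows of the pair share 245 bases and both cores.

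**Figure D1:**
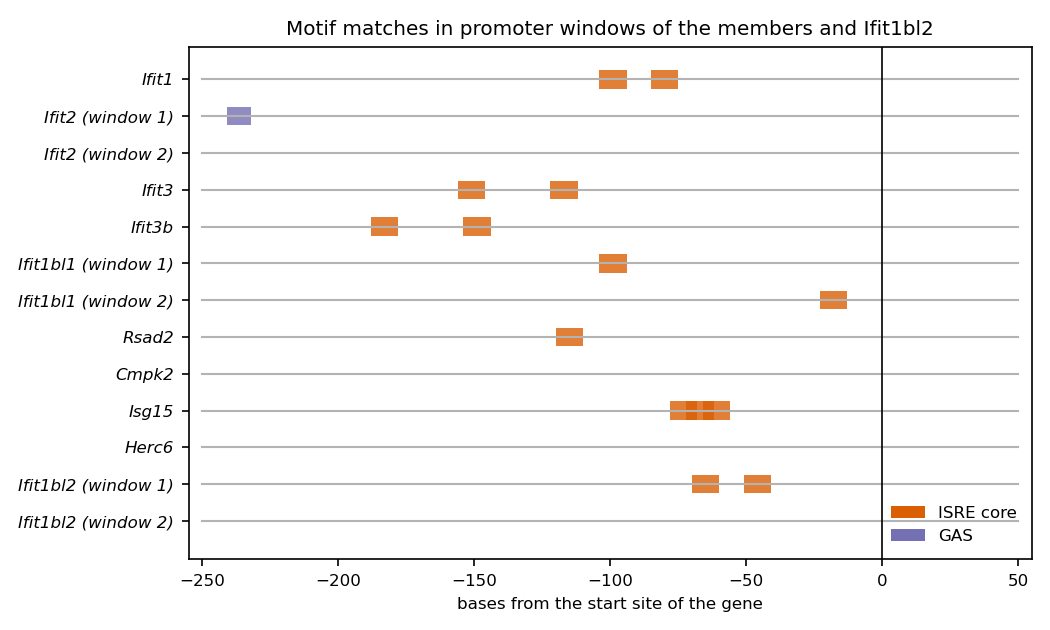
Positions of ISRE cores (orange) and γ-activated sites (GAS, purple) in the promoter windows of 9 members and of *Ifit1bl2*, against the distance in bases from the start site (vertical line). Every ISRE core shown lies before the start, and the members' cores begin between 188 bases (*Ifit3b*) and 23 bases (*Ifit1bl1*, window 2) from it.

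Signals below are processed signals, which are the brightness of a spot after background subtraction by the scanner software. A log2 difference is the difference between 2 arrays after the log2 signal had been reduced by the 75th percentile of its own array, and that percentile ran from a signal of 1453 (MG132) to 1683 (epoxomicin). No spot was saturated, and between 60.3% and 63.1% of spots per array were well above background by the software's call. The only spread at hand is that between the 10 spots of 399 repeated probes within an array, whose median SD was between 0.0556 and 0.0615 on the log2 scale. It is no measure of the spread between cultures. All 3 inhibitor arrays are set against the same DMSO array, so the comparisons share its values. RNA of whole cultures cannot tell more cells that express a gene from more RNA per cell. Of 7 macrophage markers with a named probe, 6 were well above background on every array, and *Mrc1* on none. Markers of B cells (3) and NK cells (2) were not well above background on any array. Of 3 T cell markers *Cd3g* and *Cd8a* were on none and *Cd3e* was on all. *Cd3e* had signals of 849 (DMSO), 792 (MG132), 604 (epoxomicin) and 735 (ONX0914). Of 3 epithelial markers, *Krt8* was well above background with MG132 (37.8) and epoxomicin (121), *Krt18* with epoxomicin alone (33.7), and *Epcam* on no array. Of 3 fibroblast markers, *Pdgfra* was well above background with DMSO (38.6) and epoxomicin (24.1), and *Col1a1* and *Col3a1* on no array. The part of these markers in the results was not tested.

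The 10 genes were higher with each inhibitor than with DMSO, by a median log2 difference of 3.38 (10.4-fold) with MG132, 3.98 (15.8-fold) with epoxomicin and 2.93 (7.63-fold) with ONX0914. *Ifit1bl1* was not well above background with DMSO and enters these medians by lower bounds. Over the 9 genes measured on all arrays the medians were 3.45, 4.04 and 3.47, each of them the value of *Ifit1*. The medians with MG132 and ONX0914 were then close, but the genes were not. Taken gene by gene, the difference of ONX0914 from MG132 had a median of -0.56 over these 9. Over all genes compared, the medians were -0.02, -0.04 and -0.01. *Rsad2* had the highest difference among the members on each inhibitor array and *Herc6* the lowest.

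Among the IFIT genes, *Ifit1*, whose product binds RNA with foreign caps, had a signal of 541 (DMSO), 5186 (MG132), 9047 (epoxomicin) and 5851 (ONX0914). The log2 differences from DMSO were 3.45, 4.04 and 3.47, or 10.9-, 16.4- and 11.1-fold. Thus MG132 and ONX0914 were close together for this gene, with epoxomicin above both.

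*Ifit2*, which encodes another RNA-binding member of the family, had signals of 1257 (DMSO), 7278 (MG132), 13025 (epoxomicin) and 6431 (ONX0914). These gave differences of 2.72 (6.59-fold), 3.35 (10.2-fold) and 2.39 (5.25-fold), the lowest of the IFIT genes measured on all arrays. *Ifit3*, which encodes a further member, had signals of 616, 10094, 15985 and 7610.3 in the same order. Its differences were 4.22 (18.7-fold), 4.67 (25.5-fold) and 3.66 (12.7-fold).

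*Ifit3b*, the near copy of *Ifit3*, had signals of 68.4, 1864, 3344 and 1169 at its brighter probe. The differences were 4.95 (31.0-fold), 5.59 (48.1-fold) and 4.13 (17.5-fold), but with normexp background correction they were 2.49, 3.07 and 1.73. Its dimmer probe was not well above background with DMSO and read 149, 287 and 106 with the inhibitors, so only bounds can be given, at least 11.5-, 19.2- and 7.39-fold. A bound sets the brighter array against the lowest signal well above background on the DMSO array. The probe sequences were not at hand, so cross-hybridization between *Ifit3* and *Ifit3b* was not tested.

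*Ifit1bl1*, an IFIT1-like gene, was not well above background with DMSO and had signals of 112 (MG132), 204 (epoxomicin) and 36.5 (ONX0914), which makes it at least 8.66-, 13.6- and 2.55-fold higher. All 3 inhibitor values were well above background, and that of ONX0914 was the lowest of them.

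*Rsad2*, the viperin gene, had a signal of 659.6 (DMSO), 39790.2 (MG132), 67508 (epoxomicin) and 25519.8 (ONX0914). The log2 differences were 6.10 (68.7-fold), 6.65 (101-fold) and 5.31 (39.7-fold). It ranked 5 of 13773 genes with MG132, 5 of 13875 with epoxomicin and 4 of 13794 with ONX0914. *Cmpk2*, whose start lies 12763 bases from that of *Rsad2* on the other strand, had signals of 444, 8047, 13783 and 6926 at its brighter probe. Its differences were 4.37 (20.6-fold), 4.93 (30.5-fold) and 4.00 (16.0-fold), and the dimmer probe gave 4.71, 4.79 and 4.02. The adjacent pair thus had higher values with every inhibitor, with *Rsad2* above *Cmpk2* in each comparison.

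In the ISG15 system, *Isg15* itself had a signal of 3996 (DMSO), 34776 (MG132), 61539 (epoxomicin) and 20369.6 (ONX0914). The differences were 3.31 (9.90-fold), 3.92 (15.1-fold) and 2.39 (5.23-fold), and the dimmer probe gave 3.53, 4.23 and 2.57. *Usp18*, the ISG15 protease, had signals of 6335, 42834, 59414 and 26013. Its differences were 2.94 (7.70-fold), 3.20 (9.22-fold) and 2.07 (4.21-fold). For both genes the ONX0914 array was the lowest of the 3 inhibitor arrays.

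*Herc6*, the ISG15 ligase, had signals of 652, 1691, 2702 and 1348 at the probe with the higher mean, which gave differences of 1.56 (2.95-fold), 2.03 (4.08-fold) and 1.09 (2.12-fold). Its other probe, with signals of 415, 1721, 2765 and 1190, gave 2.24 (4.72-fold), 2.71 (6.55-fold) and 1.56 (2.94-fold). The gap between its probes was thus 0.68, 0.68 and 0.47 on the log2 scale, larger than the spread between spots, and both probes had the same order of inhibitors.

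**Figure D2:**
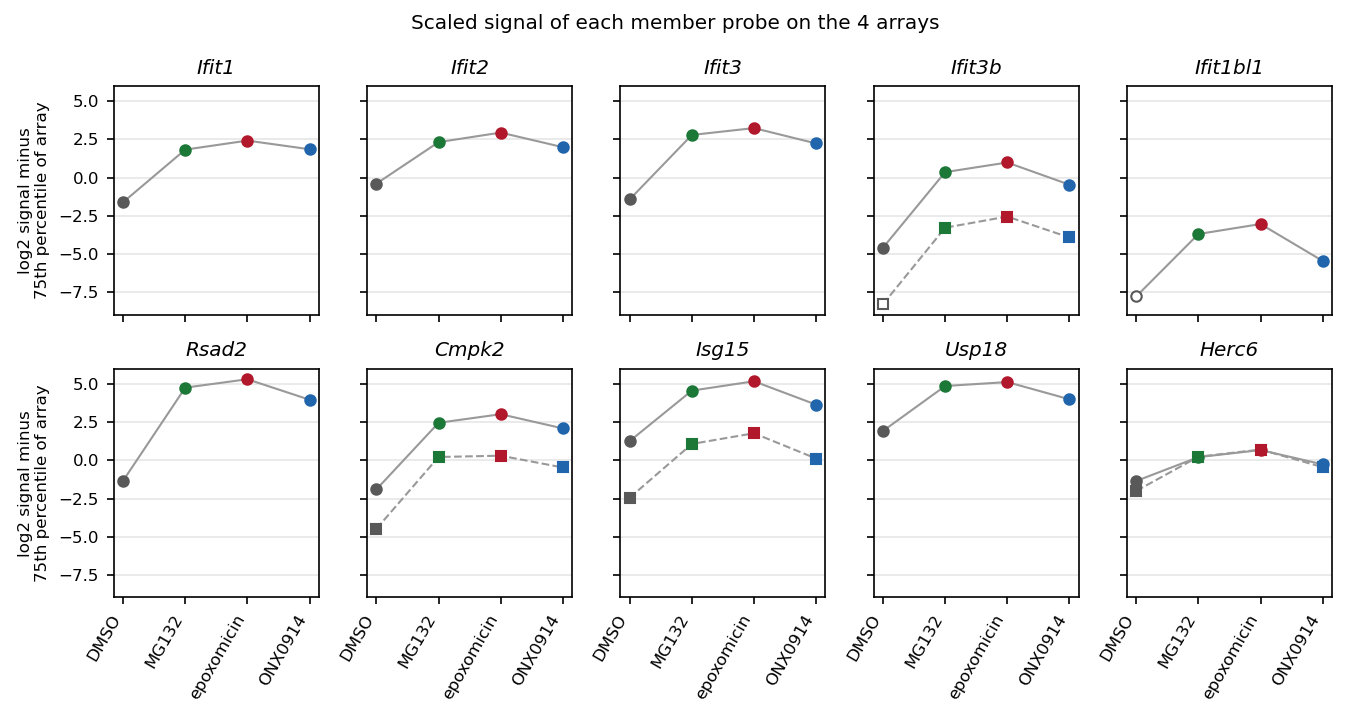
Log2 processed signal minus the 75th percentile of the array, for every probe of the 10 genes on the 4 arrays. Circles and solid lines show the brighter probe of a gene, squares and dashed lines the dimmer one, and open symbols a signal not well above background. For each of the 14 probes the DMSO array is the lowest, and the epoxomicin array is the highest.

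**Figure D3:**
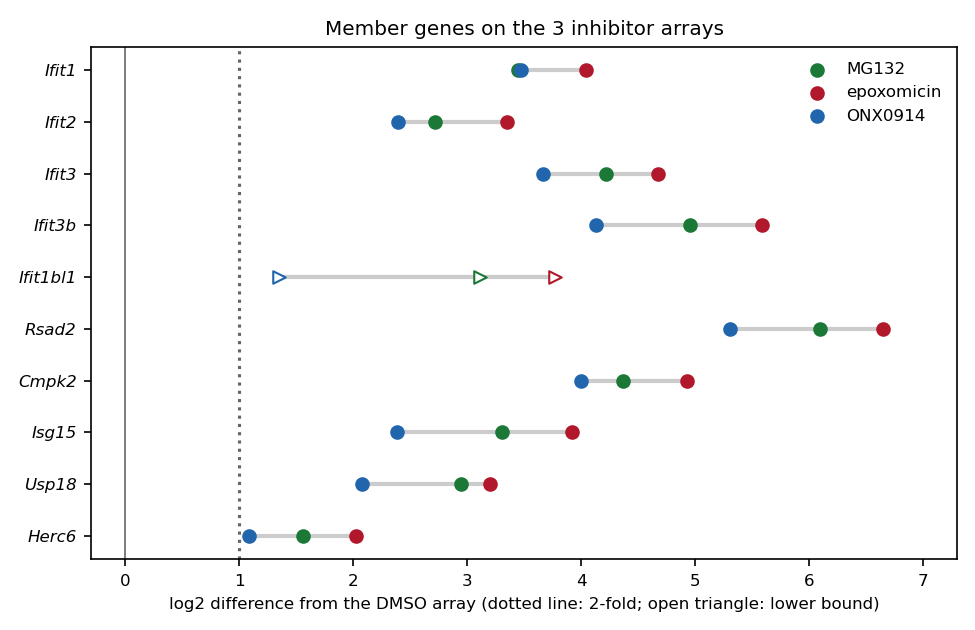
Log2 difference of each gene from the DMSO array, at its brighter probe. Open triangles are lower bounds (*Ifit1bl1*), the dotted line is a 2-fold difference, and there are no error bars because each condition had 1 array. All points lie to the right of the line, from 1.09 (*Herc6*, ONX0914) to 6.65 (*Rsad2*, epoxomicin).

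All 10 genes were at least 2-fold higher with each inhibitor, *Ifit1bl1* by its bounds. With normexp background correction the counts were 9, 9 and 8, because *Herc6* was at 0.64 with ONX0914 and *Ifit1bl1* no longer reached 2-fold or had no value. Of all genes compared, 7.25% (MG132), 8.41% (epoxomicin) and 3.27% (ONX0914) were so, and 2.02% were with all 3 (272 of 13460). At 4-fold, 9 members were higher with MG132, where 1.97% of all genes were, 10 with epoxomicin (2.42%) and 8 with ONX0914 (0.826%). No member was lower than with DMSO, where 3.66%, 4.50% and 1.41% of all genes were at least 2-fold lower. *Herc6* was under 4-fold with MG132 and ONX0914 at the probe with the higher mean, which the counts and ranks here use. Its other probe gave 4.72-fold with MG132 and 2.94-fold with ONX0914. The bound of *Ifit1bl1* was under 4-fold with ONX0914. The 99th percentile of all genes was 2.64, 2.96 and 1.85, and 9, 9 and 8 members lay above it. The lowest rank was that of *Herc6*, 456 with MG132, 326 with epoxomicin and 403 with ONX0914.

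**Figure D4:**
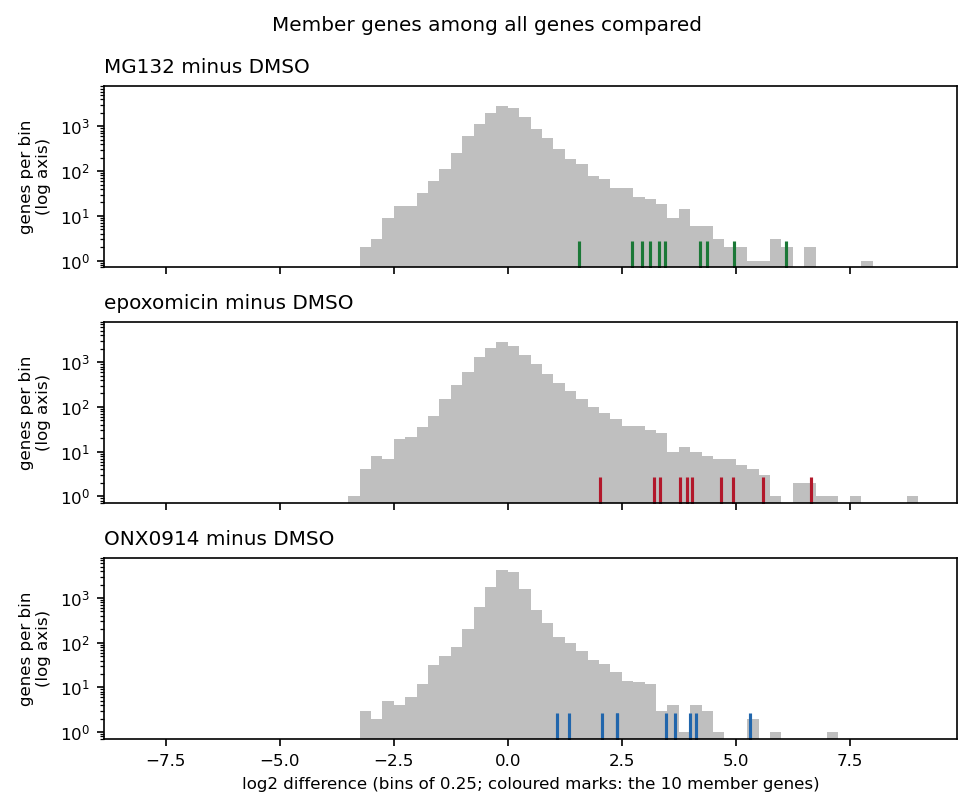
Histograms of the log2 difference from DMSO over all genes compared (gray, bins of 0.25, log axis for the number of genes), one panel per inhibitor. Colored marks are the 10 genes, bounds at their value, and they lie in the right tail, above 1 in each panel.

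The inhibitors were then set against each other at the same dose and time, in 3 pairs. A gene was counted where the pair differed by more than 0.0870 on the log2 scale, which is the largest SD between spots times the square root of 2. Epoxomicin gave higher values than MG132 for 10 of 10 genes, where 30.1% of all genes were higher, with a median difference of 0.58 (1.49-fold) and a range from 0.26 (*Usp18*) to 0.66 (*Ifit1bl1*). *Cmpk2* was counted by its brighter probe (0.56), and its dimmer probe gave 0.0868, just under the minimum. ONX0914 gave lower values than MG132 for 9 of 10 genes, where 37.8% of all genes were lower, with a median difference of -0.67. The exception was *Ifit1*, at 0.02, which is within the spread between spots. ONX0914 gave lower values than epoxomicin for 10 of 10 genes, where 37.5% of all genes were lower, with a median difference of -1.07 and a range from -2.42 (*Ifit1bl1*) to -0.57 (*Ifit1*). At 2-fold, 6 members were lower with ONX0914 than with epoxomicin (*Ifit3*, *Ifit3b*, *Ifit1bl1*, *Rsad2*, *Isg15* and *Usp18*), where 4.38% of all genes were. No interval can be given for these pairs, and a potency cannot be read from 1 dose.

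The order epoxomicin, MG132, ONX0914 from high to low held for 9 of the 10 genes, *Ifit1* being the exception. It held for 65.1% of the 272 genes at least 2-fold higher with all 3 inhibitors, so most of those genes had the same order.

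Among the 9 members measured on all arrays, the genes differed in how close ONX0914 came to MG132. The log2 difference with ONX0914, divided by that with MG132, was between 0.834 and 1.01 for the 4 IFIT genes measured on all arrays, 0.870 and 0.916 for *Rsad2* and *Cmpk2*, and between 0.695 and 0.721 for *Isg15*, *Usp18* and *Herc6*. The remaining IFIT gene, *Ifit1bl1*, has no measured ratio. Its bounds give 0.433, which is a minimum, because a lower DMSO signal would raise both differences alike. Its measured difference between ONX0914 and MG132, -1.77, was the lowest of the 10 genes. Whether the ratios divide the whole IFIT family from the ISG15 system therefore cannot be told. For 11 other interferon-stimulated genes at least 2-fold higher with all 3 the ratio was between 0.575 and 0.705. These 11 come from a list of 21, and the 10 left out were not 2-fold higher with ONX0914. Of those 10, *Zbp1* differed from DMSO by 0.50 (MG132) and 0.47 (ONX0914), and *Ifit1bl2* by 0.43 and -0.07. The whole list thus has a wider range than the 11. For the 252 genes of any kind at least 2-fold higher with all 3 and measured on every array, members included, the median ratio was 0.693 (quartiles 0.601 and 0.821). Both numbers of a ratio contain the same DMSO value. With normexp background correction the ratios of the 9 genes overlapped between the groups, because the ratio of *Ifit3b* was 0.697 and the highest of the ISG15 system 0.719.

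The enzymes that conjugate ISG15 had a lower median difference from DMSO than the members. *Uba7*, the activating enzyme, had a signal of 3770 (DMSO), 7529 (MG132), 10912 (epoxomicin) and 6078 (ONX0914), or differences of 1.18, 1.51 and 0.73. *Ube2l6*, the conjugating enzyme, differed by 0.49, 0.72 and 0.39. The ligase genes *Trim25* (1.77, 1.80 and 0.90) and *Arih1* (1.02, 1.19 and 0.55) completed the list of 4, of which 3, 3 and 0 were at least 2-fold higher, with median folds of 2.15, 2.55 and 1.56.

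Of 14 genes that signal to these promoters, 6 (MG132), 6 (epoxomicin) and 5 (ONX0914) were at least 2-fold higher, and their medians were 0.03, 0.16 and 0.18. *Stat2*, a subunit of the ISRE-binding factor, differed by 2.31, 2.44 and 1.49, and *Irf9*, its DNA-binding subunit, by 1.25, 1.55 and 0.83. *Irf7* differed by 2.98, 3.13 and 1.96, and *Irf1* by 2.51, 2.80 and 2.63. *Socs1*, which restrains Janus kinases, was highest with ONX0914, with signals of 316 (DMSO), 2311 (MG132), 3236 (epoxomicin) and 6654 (ONX0914). *Ifnar1*, a chain of the type I interferon receptor, was lower than with DMSO, at -1.23, -1.35 and -0.66.

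No interferon gene was counted as higher. Of 16 with a named probe, 8 were well above background on all arrays and 5 on none, and of the 10 with a value none reached a 2-fold higher value on an inhibitor array. *Ifnb1*, the interferon-β gene, had signals of 71.3 (DMSO) and 84.1 (epoxomicin) and was not well above background with MG132 or ONX0914. By its bounds it was thus more than 2-fold lower than with DMSO on both of those arrays, at -1.81 (MG132) and -1.85 (ONX0914). Both bounds rest on 1 dim DMSO signal, on an array whose lowest signal well above background was 14.7. No alternative setting is given here for *Ifnb1*. Interferon-α genes are near copies of each other, so the assignment of their probes is uncertain. Of 21 other interferon-stimulated genes with a named probe, 17, 19 and 11 were at least 2-fold higher, with medians of 1.82, 2.05 and 1.02. *Oasl1* was the highest of them, at 3.89, 4.31 and 2.63. The 10 reference genes had medians of -0.11, -0.14 and -0.03, and 1 of them, *Gusb*, was more than 2-fold lower with MG132 and epoxomicin.

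**Figure D5:**
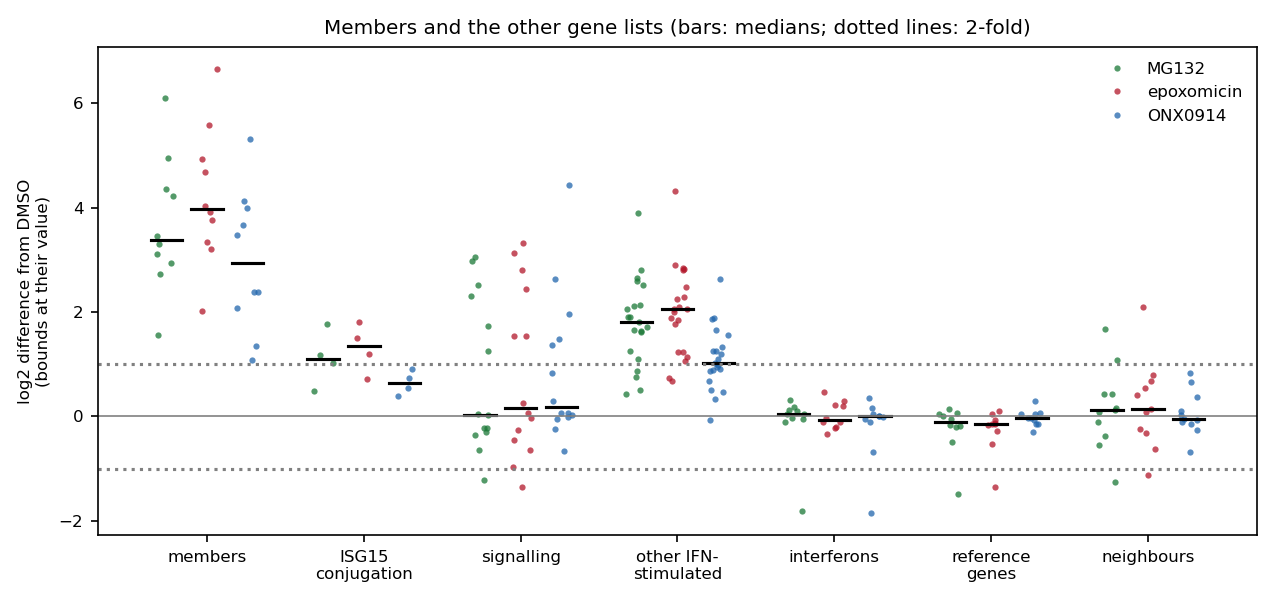
Log2 difference from DMSO of each gene with a value (points), for the 10 members and 6 other lists. Black bars are medians, dotted lines mark 2-fold, and bounds are drawn at their value. The members have the highest medians (3.38, 3.98 and 2.93, with the bounds of *Ifit1bl1* included). The other interferon-stimulated genes come next (1.82, 2.05 and 1.02).

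*Ifit1bl2*, which shares a promoter region and both ISRE cores with *Ifit1*, had signals of 672 (DMSO), 796 (MG132), 1087 (epoxomicin) and 626 (ONX0914). Its differences were 0.43, 0.67 and -0.07, against 3.45, 4.04 and 3.47 for *Ifit1*. In the opposite direction of the shared region, the same cores read as follows, with chr19:34640794-34640823 first and chr19:34640775-34640804 second, on the minus strand.
Ifit1bl2, first core: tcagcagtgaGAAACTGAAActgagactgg
Ifit1bl2, second core: actgagactgGAAAGTGAAActgaagcctg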

How the data were processed

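RNA from 4 cultures was measured on Agilent single-color arrays on 1 slide with 1 scan. The intensities deposited by the authors came from Feature Extraction (10.7.1.1), which subtracts the background within an array and gives each spot 0 or 1 calls (well above background, outlier). Their deposited log2 table, centered on each probe's median as judged against these intensities, was an alternative. The Methods name a human design, whereas the file headers describe a mouse design (mm9), whose coordinates were not used.

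Control spots and outlier spots were left out, log2 intensities were reduced by the 75th percentile of the array, and repeated spots were averaged. Probes were named through RefSeq (GRCm38.p6), which named 26581 of 39429 (67.4%), and a gene was represented by its brightest probe. A gene was compared when well above background on at least 1 of both arrays, with a bound for a dim signal, and counted at 2-fold. The members and lists were chosen with earlier results of these data known. All 10 members were named, besides the lists of conjugation, signaling, interferon, reference and neighboring genes and the 5 genes most like the members' median profile. The minimum of 0.0870 for counts between inhibitors was set after the values had been seen, and without it the same 10, 9 and 10 members were counted. No test was run, because 1 array per group allows none. Precision was limited by the number of arrays. Some items are not reported here.

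Settings tried instead were normexp background correction (offset 50), quantile, median, *Hprt* or no scaling, the percentile over detected probes, the authors' table, the mean over probes, outlier spots kept, the processed signal for bounds, a 4-fold threshold and detection on all arrays. On simulated data, 200 of 200 changed genes were recovered for MG132 against DMSO and 0 unchanged genes were called (12728 genes). The spread between cultures is not known from 1 array per group, so this gives no rate of false calls for the real arrays. Python 3.11.15 (numpy 2.4.6, pandas 2.3.3, scipy 1.17.1, matplotlib 3.10.9, Biopython 1.88) and R 4.3.3 (limma 3.58.1) were used.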

Additional observations from a re-analysis of the deposited data

How the results depend on the processing

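No value of a member against DMSO changed sign under any alternative that gave one, and 8 to 10 members stayed at least 2-fold higher with each inhibitor. The median with MG132 (3.38) was 3.05 with normexp, 3.23 with normexp fitted without outlier spots (chosen after seeing the data), 3.28 with median scaling, 3.58 with *Hprt*, 3.19 without scaling, 3.73 in the authors' table and 3.77 with the processed signal for bounds. With epoxomicin (3.98) it was 3.35, 3.83, 4.15, 4.33 and 4.36 with normexp, normexp without outlier spots, *Hprt*, the authors' table and the processed signal. With ONX0914 (2.93) it was 2.43 and 2.70 with these normexp fits. Epoxomicin over MG132 (0.58) was 0.79 without scaling. ONX0914 against MG132 (-0.67) was -0.58 with median scaling, -0.84 with *Hprt* and -0.52 without scaling, and against epoxomicin (-1.07) it was -1.21 with *Hprt*. At 4-fold, 8, 12 and 1 other interferon-stimulated genes were higher. The causes were not tested. Normexp gave *Ifit1bl1* no value with MG132 and ONX0914 and brought its epoxomicin bound to nearly 0, and *Ifit3b* to 2.49, 3.07 and 1.73. *Herc6* with ONX0914 (1.09) was 0.64 with normexp and 0.90 with normexp without outlier spots, where *Ifit1bl1* was at 0.28. With quantile or *Hprt* scaling *Ifit1* also had MG132 above ONX0914. Normexp moved the median of all genes to -0.27, -0.30 and -0.17, *Hprt* to 0.19, 0.13 and 0.02, no scaling to -0.20, -0.02 and -0.04, and median scaling to -0.12, -0.11 and -0.01. No paired analysis was possible because each group has 1 array.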

Other observations

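For each member or run of adjacent members, the nearest protein-coding gene on each side that was well above background on all arrays was taken. Genes not so measured were passed over, and 11 neighbors were listed. With MG132, 2 were at least 2-fold higher, with epoxomicin 1 and with ONX0914 none, where 7.25%, 8.41% and 3.27% of all genes were. *Agrn*, next to *Isg15*, had signals of 424 (DMSO), 1193 (MG132), 1842 (epoxomicin) and 735 (ONX0914), or differences of 1.68, 2.09 and 0.83. *Plekhn1*, on the other side of *Isg15*, differed by 1.08, 0.78 and 0.65. *Lipa*, at the edge of the IFIT cluster, differed by -0.11, -0.24 and -0.11, and *Pank1*, beyond *Ifit1*, by -1.27, -1.13 and -0.68.

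Of 12719 other genes measured on all arrays, those nearest to the median profile of the 9 members so measured (3.45, 4.04 and 3.47) were ranked by straight-line distance over the 3 differences. *Cd69*, an activation marker of leukocytes, was nearest at 0.208, with differences of 3.45, 3.83 and 3.46. *Gbp5*, *Gbp2*, *Tgtp2* and *Iigp1*, which encode interferon-induced GTPases, followed at 0.425, 0.490, 0.552 and 0.655. In each comparison that median was the value of *Ifit1*, the member that was not lower with ONX0914 than with MG132. The genes named are therefore those nearest to *Ifit1*, and less like the other members. The 3 differences share the DMSO array, and the distance is a description.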
